A study of Mus musculus with 12 samples.

Results

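The guanylate-binding protein and immunity-related GTPase genes described here are Gbp2, Gbp3, Gbp4, Gbp5, Gbp7, Gbp9, Irgm1, Irgm2, Igtp and Iigp1, and were taken by gene symbol, matched to the identifiers of the count table. They are 10 of the 54532 genes in the table, and all 10 were among the 15338 genes with enough counts to be tested. Bulk RNA sequencing was run on mouse bone marrow-derived macrophages (BMDMs), in a study of how the glycoprotein GPNMB bears on the conversion of macrophages to lipid-laden foam cells. The 4 groups of 3 libraries were OxLDL-treated cells from GpnmbR150X mice (R150X OxLDL), OxLDL-treated cells from control mice (WT OxLDL), untreated R150X cells and untreated WT cells. R150X is a premature stop codon in Gpnmb, and OxLDL is oxidized low-density lipoprotein, the lipid load that turns macrophages into foam cells. The mice of every group came from a DBA/2 and C57BL/6 cross that was backcrossed to C57BL/6. Neither dose nor time of OxLDL, nor age, nor the number of mice behind a library is given in the labels, so a p-value here measures only the spread between these libraries, which may be technical.

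Guanylate-binding proteins (GBPs) and immunity-related GTPases (IRGs) are among the proteins that macrophages make in large amounts in response to interferon. GBPs are large dynamin-like GTPases that assemble on the membranes of pathogen vacuoles and on cytosolic bacteria, break them open or coat them, and give inflammasomes access to their contents. IRGs fall into effectors such as Iigp1 (Irga6), which load onto vacuole membranes and disrupt them, and regulators of the Irgm class (Irgm1, Irgm2 and Igtp, also called Irgm3), which sit on the cell's own membranes and keep the effectors inactive there. Interferon raises transcription of both families through GAS elements, through interferon-stimulated response elements (ISREs) and through the factor IRF1.

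The libraries held 14838969 to 18222868 counts assigned to genes. Gpnmb itself averaged 706 ± 16.3 CPM (counts scaled to library size) in R150X OxLDL libraries and 12507 ± 136 CPM in WT OxLDL libraries, and 385 ± 23.9 CPM in untreated R150X libraries and 5330.2 ± 37.8 CPM in untreated WT libraries (SD, n = 3 each). Among replicates of a group, untreated R150X replicate 1 stood apart, with a chi-square per degree of freedom of 9.7 and 10.6 against its own replicates, where all other pairs gave 2.38 to 4.94. Without it, the counts of GBP and IRG genes called in each comparison were the same. Xist, the RNA of the inactive X chromosome, was at 327 to 346 CPM in R150X OxLDL libraries and 0 to 0.0695 CPM in WT OxLDL libraries, and at 228 to 349 CPM in untreated R150X libraries and 0.59 to 2.75 CPM in untreated WT libraries. The summed CPM of 4 Y-linked genes (Ddx3y, Kdm5d, Eif2s3y and Uty) were 128 to 141 in R150X OxLDL and 208 to 233 in WT OxLDL libraries, and 124 to 134 in untreated R150X and 195 to 205 in untreated WT libraries. Genotype and the sex of the donor mice cannot be told apart in the genotype comparisons below.

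The macrophage label was met by 8 markers (Adgre1, Csf1r, Cd68, Mertk, Fcgr1, Itgam, Cd14 and Lyz2), which summed to 19500 to 20880 CPM in R150X OxLDL, 23150 to 24770 CPM in WT OxLDL, 21220 to 22150 CPM in untreated R150X and 19450 to 19760 CPM in untreated WT libraries. Most of that sum was Lyz2, and single markers moved apart: with OxLDL 5 of the 8 fell and 3 rose in R150X, and 3 fell and 3 rose in WT cells. The macrophage markers that fell include Adgre1 (log2 fold change -1.85 in R150X, -1.71 in WT), Cd14 (-2.24 in R150X, -1.61 in WT) and Fcgr1 (-1.54 in R150X, -1.19 in WT), and Cd68 rose (0.57 in R150X, 0.79 in WT). Of the lymphocytes that make interferon gamma, the T and NK cell list of 9 markers summed to 22.1 to 24.8 CPM in R150X OxLDL, 21.6 to 23.0 CPM in WT OxLDL, 12.3 to 15.7 CPM in untreated R150X and 12.9 to 16.96 CPM in untreated WT libraries. Most of it was Cd4, with Gzma at 0 counts in all libraries. The 12 neutrophil markers summed to 42.7 to 44.7 CPM in R150X OxLDL, 135 to 156 CPM in WT OxLDL, 285 to 310.5 CPM in untreated R150X and 559 to 592 CPM in untreated WT libraries. The 8 stromal markers summed to 6029 to 6336 CPM in R150X OxLDL, 6167 to 6791 CPM in WT OxLDL, 8595 to 8660 CPM in untreated R150X and 12880 to 13000 CPM in untreated WT libraries. The 5 endothelial markers summed to 176 to 182 CPM in R150X OxLDL, 172 to 183 CPM in WT OxLDL, 235 to 259 CPM in untreated R150X and 291 to 302 CPM in untreated WT libraries. The neutrophil, stromal and endothelial sums were thus lower with OxLDL than without it in each genotype, and lower in untreated R150X than in untreated WT libraries. Not every marker went this way. With OxLDL, 7 of 10 neutrophil markers tested fell and 0 rose in R150X, and 6 fell and 2 rose in WT cells. Of 8 stromal markers, 5 fell and 1 rose in R150X, and 4 fell and 0 rose in WT cells. Of 5 endothelial markers, 4 fell and 1 rose in each genotype. In untreated R150X against WT, 9 neutrophil markers were lower and 0 higher, 5 stromal lower and 2 higher, and 3 endothelial lower and 1 higher. With OxLDL, 9 neutrophil and 5 of the 8 macrophage markers were lower in R150X than in WT, and 0 of either were higher. Stromal markers were 3 lower and 1 higher there, endothelial markers 1 lower and 1 higher. For the R150X minus WT difference in OxLDL response, 7 macrophage and 6 neutrophil markers were called negative and 0 positive. In that test 5 stromal markers were positive and 1 negative, and 2 endothelial positive and 0 negative. The 8 dendritic cell markers summed to 1200 to 1237 CPM in R150X OxLDL, 1067 to 1125 CPM in WT OxLDL, 976 to 1121 CPM in untreated R150X and 736 to 747 CPM in untreated WT libraries. This sum was higher in R150X both with and without OxLDL, but single markers were mixed. Of the 6 dendritic cell markers tested, 1 was called higher and 1 lower in R150X with OxLDL, with a median log2 fold change of 0.02. In untreated cells 2 were called higher and 1 lower in R150X, with a median of 0.25. The part of these marker shifts in the results below was not tested.

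All 10 genes code for proteins. On GRCm38 they lie in clusters. Gbp5 (ENSMUSG00000105504, chr3:142493978-142522344), Gbp7 (ENSMUSG00000040253, chr3:142530342-142550149), Gbp3 (ENSMUSG00000028268, chr3:142560026-142573209) and Gbp2 (ENSMUSG00000028270, chr3:142620602-142638008) follow each other on the plus strand of chromosome 3. Gbp9 (ENSMUSG00000029298, chr5:105077630-105139539) and Gbp4 (ENSMUSG00000079363, chr5:105115767-105139586) overlap on the minus strand of chromosome 5. Irgm1 (ENSMUSG00000046879, chr11:48861968-48871683, minus strand) stands apart from Igtp (ENSMUSG00000078853, chr11:58199556-58207591) and Irgm2 (ENSMUSG00000069874, chr11:58199618-58222782), which overlap on the plus strand of the same chromosome.

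The sequences before the transcription start were taken from RefSeq (build GRCm38.p6) for 7 of the 10 genes, with 2 starts for Gbp3. Gbp4, Gbp9 and Iigp1 were not searched. Within 250 bases before the start, both strands were searched for the ISRE core, which is GAAA followed after any 2 bases by GAAA, the GAS element TTCNNNGAA and the NF-kB element, which is GGGA followed after any 2 bases by TTCC. An ISRE match stood before each of the 7 genes, on 7 of the 8 starts, whereas 2.98% of all 32851 mouse promoters of the same length hold one. With other GBP and IRG family genes added to these, 11 of 16 starts held one. GAS matches stood on 4 of the 8 starts, against 7.02% of all promoters, and an NF-kB match on 1, against 1.21%. These are matches of letters, not measured binding. The 5 stretches below, each the 200 bases before the start, are shown because they hold the different arrangements of these elements; capitals mark the matches. That of Gbp2 (chr3:142620463-142620662, plus strand) has a single ISRE, read on the opposite strand. That of Gbp5 (chr3:142496734-142496933, plus strand) holds an ISRE and an NF-kB element on the opposite strand and a GAS element, and was the only one of the 8 starts with all 3 motifs. That of Irgm1 (chr11:48871421-48871620, minus strand) has 2 overlapping ISRE matches. Those of Irgm2 (chr11:58214777-58214976, plus strand) and Igtp (chr11:58199356-58199555, plus strand) have a GAS element closely followed by an ISRE. Over the 250 bases searched, the Irgm2 and Igtp promoters share a run of 55 identical bases, the longest between any pair of the 8, which begins upstream of the stretch shown for Irgm2.
Gbp2: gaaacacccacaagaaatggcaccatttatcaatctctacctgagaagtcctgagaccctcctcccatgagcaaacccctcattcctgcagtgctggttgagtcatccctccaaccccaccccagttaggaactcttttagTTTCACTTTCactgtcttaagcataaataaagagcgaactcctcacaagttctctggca
Gbp5: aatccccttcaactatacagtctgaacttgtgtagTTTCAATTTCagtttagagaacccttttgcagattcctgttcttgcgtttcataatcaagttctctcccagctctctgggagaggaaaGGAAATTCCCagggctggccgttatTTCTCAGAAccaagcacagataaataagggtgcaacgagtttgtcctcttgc
Irgm1: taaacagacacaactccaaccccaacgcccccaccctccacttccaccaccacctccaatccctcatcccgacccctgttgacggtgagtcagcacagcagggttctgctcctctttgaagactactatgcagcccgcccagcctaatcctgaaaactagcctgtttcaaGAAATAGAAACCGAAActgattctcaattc
Irgm2: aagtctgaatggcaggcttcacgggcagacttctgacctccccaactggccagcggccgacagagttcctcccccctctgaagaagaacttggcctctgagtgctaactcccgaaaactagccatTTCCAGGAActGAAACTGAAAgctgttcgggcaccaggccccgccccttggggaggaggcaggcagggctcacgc
Igtp: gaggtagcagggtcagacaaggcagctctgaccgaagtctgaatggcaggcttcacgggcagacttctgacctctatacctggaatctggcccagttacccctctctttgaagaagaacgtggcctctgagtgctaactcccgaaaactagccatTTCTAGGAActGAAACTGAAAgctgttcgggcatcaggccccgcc

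The matches lay close to the start in most of these genes. The ISRE ended 50 bases before the start of Gbp2, 44 before that of Gbp7, 55 before that of Irgm2 and 25 before that of Igtp, and the nearer of the overlapping pairs ended 30 bases before the start of Gbp3 and 15 before that of Irgm1. In Gbp5 the ISRE ended 156 bases before the start, with the NF-kB element ending at 68 and the nearer GAS element at 44. Gbp7 carried 2 GAS elements upstream of its ISRE, which ended 98 and 79 bases before the start. Gbp2, Gbp3 and Irgm1 had an ISRE and no GAS match in this window.

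**Figure D1:**
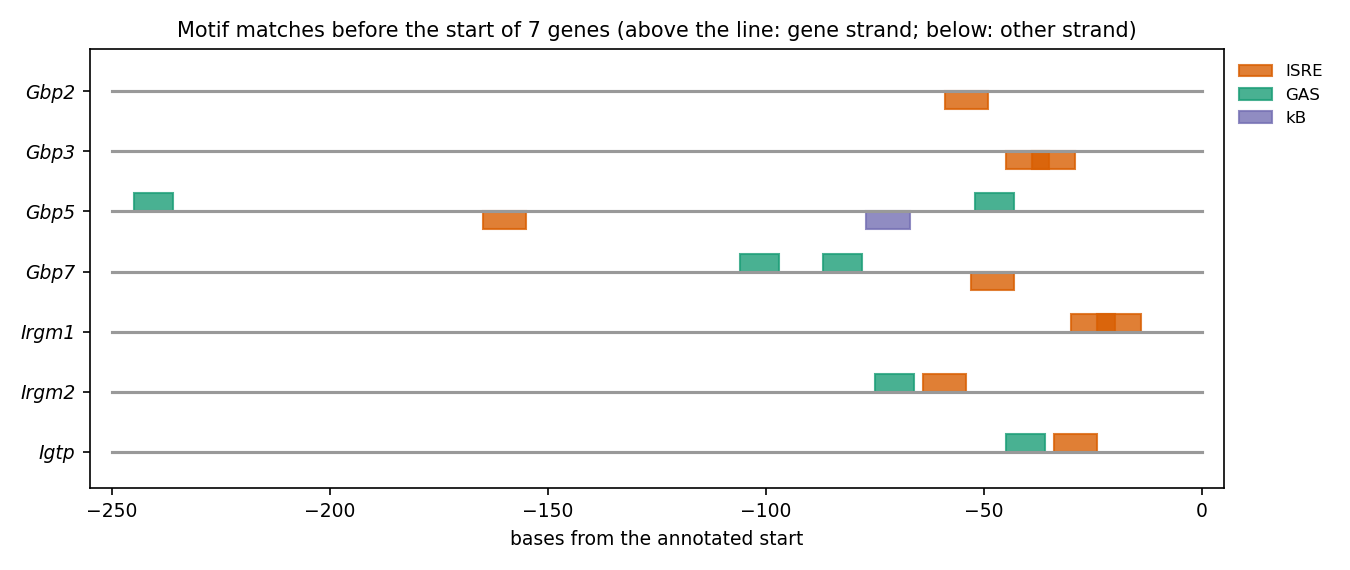
Positions of motif matches in the 250 bases before the RefSeq start of 7 genes; the x axis is the distance in bases from the start, and boxes above and below each line are matches on the gene's strand and on the other strand. Each gene has an ISRE match, Gbp3 and Irgm1 an overlapping pair, and Gbp5 is the 1 gene with an NF-kB (kB) match.

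Per length of exon, Gbp2 was the most abundant of the genes in untreated cells and no longer so with OxLDL. On the scale of CPM per kilobase of summed exons (RPKM), Gbp2 averaged 80.3 ± 2.75 in untreated R150X libraries, against 26.1 ± 0.302 for Igtp, the next gene (SD, n = 3). In untreated WT libraries Gbp2 averaged 51.8 ± 0.939 RPKM and Igtp 21.7 ± 0.155 RPKM. The middle ranks were held by Gbp3 (22.1 RPKM in untreated R150X, 18.1 in untreated WT), Irgm1 (21.7 in untreated R150X, 18.4 in untreated WT) and Irgm2 (19.2 in untreated R150X, 19.8 in untreated WT), and the libraries of Gbp3 and Irgm1 overlapped in both genotypes. Iigp1 averaged 10.3 RPKM in untreated R150X and 8.11 RPKM in untreated WT libraries. Gbp7 (6.23 RPKM in untreated R150X, 6.49 RPKM in untreated WT) and Gbp9 (5.71 RPKM in untreated R150X, 6.04 RPKM in untreated WT) overlapped each other, Gbp5 came next at 5.05 RPKM in untreated R150X and 4.47 RPKM in untreated WT libraries, and Gbp4 was lowest at 1.39 RPKM in untreated R150X and 0.910 RPKM in untreated WT libraries.

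With OxLDL the order was another one, led by the Irgm class. In R150X OxLDL libraries the levels were 5.15 RPKM for Irgm1, 5.11 for Igtp, 4.47 for Irgm2 and 3.84 for Gbp2, with overlap between Irgm1 and Igtp and between Irgm2 and Gbp2. In WT OxLDL libraries they were 5.39 RPKM for Irgm2, 5.23 for Igtp, 4.88 for Irgm1 and 4.16 for Gbp2, and there Gbp2 lay below all libraries of Irgm1. Gbp9 followed at 2.03 RPKM in R150X OxLDL and 1.96 RPKM in WT OxLDL libraries, then Gbp3 (1.62 RPKM in R150X OxLDL, 1.37 RPKM in WT OxLDL) and Gbp7 (1.58 RPKM in R150X OxLDL, 1.75 RPKM in WT OxLDL), which overlapped. Iigp1 ranked above Gbp5 without overlap in R150X OxLDL libraries (Iigp1 1.11, Gbp5 0.279 RPKM) and overlapped with it in WT OxLDL libraries (Iigp1 0.310, Gbp5 0.289 RPKM). Gbp4 was lowest in both, at 0.0504 RPKM in R150X OxLDL and 0.0943 RPKM in WT OxLDL libraries.

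The first comparison asked what OxLDL did to these mRNAs in each genotype. All 10 fell with OxLDL, in R150X and in WT macrophages. The summed level of the 10 genes was 99.8 ± 4.24 CPM in R150X OxLDL and 693 ± 7.27 CPM in untreated R150X libraries, and 98.2 ± 3.71 CPM in WT OxLDL and 564 ± 10.4 CPM in untreated WT libraries (SD, n = 3 each), so that 14.4% of the untreated sum was left in R150X and 17.4% in WT cells. The test was edgeR's quasi-likelihood test over all 15338 genes with Benjamini-Hochberg adjustment, with a call at an adjusted p under 0.05. By that rule 20.6% of all genes were lower with OxLDL in R150X and 23.1% in WT cells. In all 10 genes the OxLDL libraries lay below the untreated ones without overlap in both genotypes, which held for 23.7% of all genes in R150X and 27.9% in WT cells. A log2 fold change of -2 or lower, called, was reached by 8 of the 10 in R150X, against 2.18% of all genes, and by 6 of the 10 in WT cells, against 2.19%. The median log2 fold change of the 10 was -2.78 in R150X and -2.65 in WT cells, where that of all genes was 0.0039 in R150X and 0.01 in WT cells. From bulk RNA, fewer cells with these mRNAs and less mRNA per cell cannot be told apart. The untreated and the OxLDL libraries carry separate runs of sample numbers. Any difference in batch that goes with them cannot be told apart from OxLDL.

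**Figure D2:**
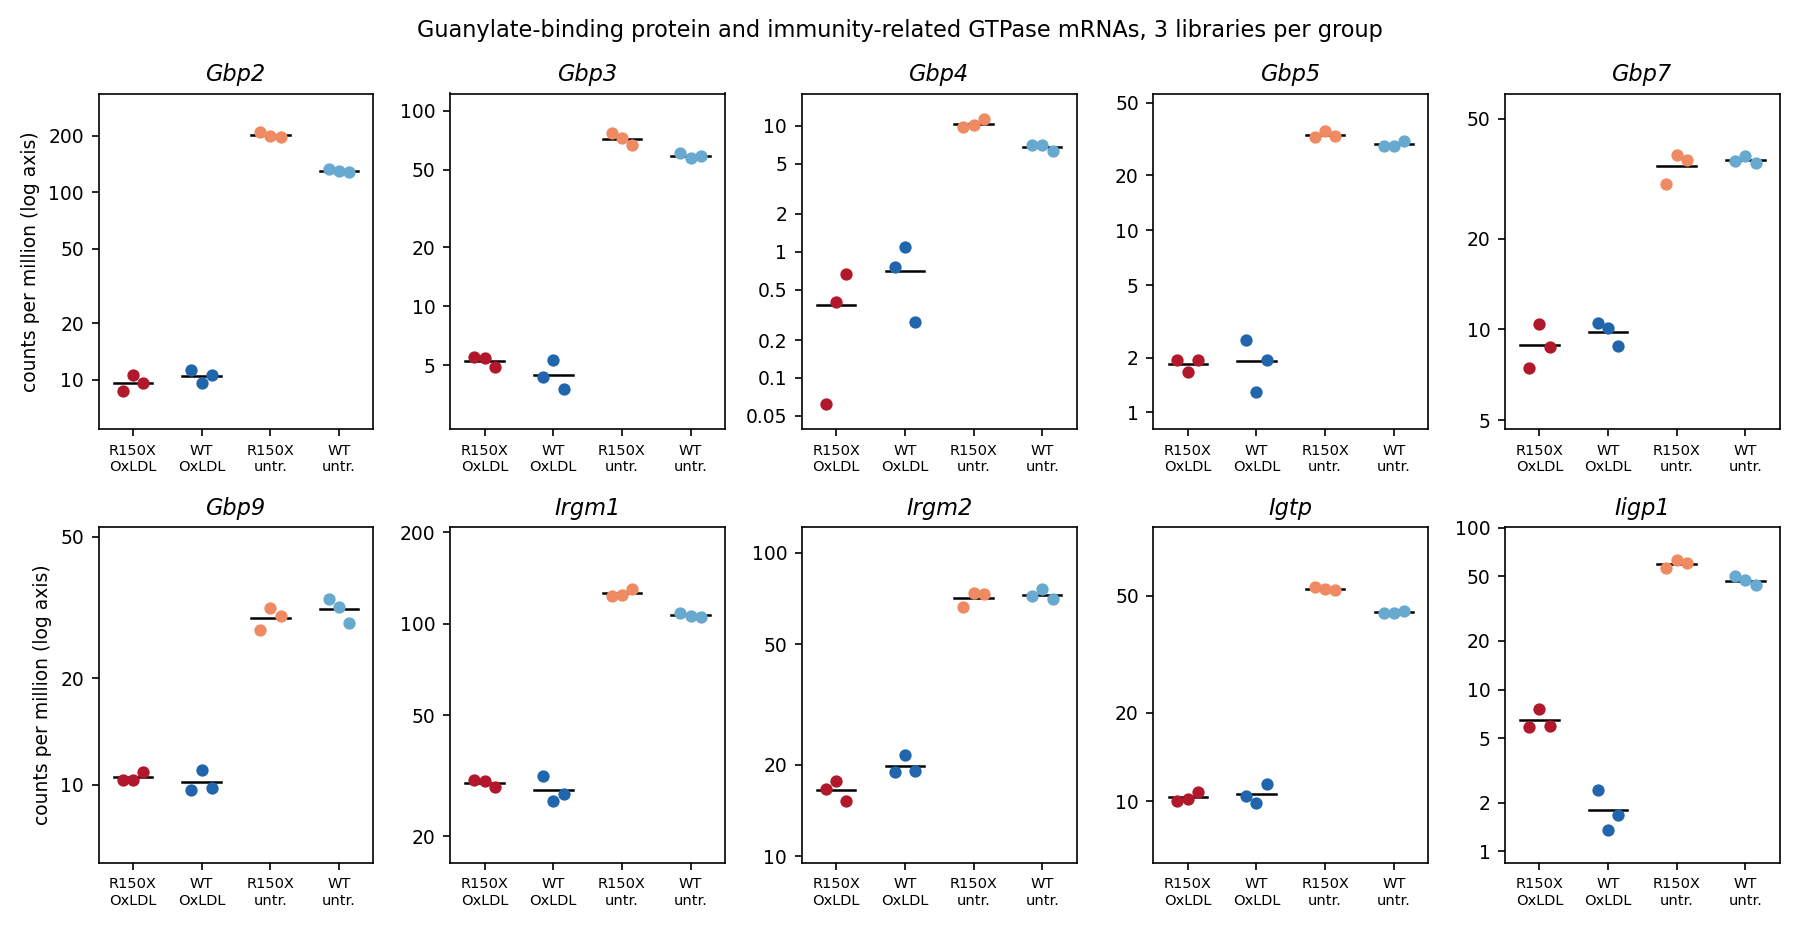
CPM (log axis, scaled per panel) of each gene in the 12 libraries; points are libraries, horizontal lines group means, and untr. stands for untreated. All OxLDL libraries lie below all untreated ones in each panel, and Iigp1 is the 1 gene whose R150X OxLDL libraries (5.90 to 7.61 CPM) lie far above the WT OxLDL ones (1.36 to 2.38 CPM).

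Among the GBPs of chromosome 3, Gbp2, Gbp3 and Gbp5 fell to 4.79 to 7.33% of their untreated level in R150X and to 6.53 to 8.05% in WT cells. Gbp2, a prenylated GBP that targets vacuoles and bacteria, had 8.72, 10.6 and 9.62 CPM in R150X OxLDL and 210.0, 199 and 197 CPM in untreated R150X libraries. In WT cells it had 11.2, 9.60 and 10.6 CPM with OxLDL and 133, 129.6 and 128 CPM untreated. The OxLDL libraries of both genotypes thus overlapped, below untreated libraries that differed between the genotypes. The log2 fold change of Gbp2 was -4.38 in R150X (SE 0.0707, adjusted p = 2.16e-21) and -3.64 in WT cells (SE 0.0711, adjusted p = 5.28e-20).

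Gbp5, which promotes assembly of the NLRP3 inflammasome, had 1.94, 1.66 and 1.95 CPM in R150X OxLDL and 32.5, 35.2 and 32.9 CPM in untreated R150X libraries. In WT cells Gbp5 had 2.51, 1.29 and 1.95 CPM with OxLDL and 29.1, 29.1 and 30.8 CPM untreated. The OxLDL libraries of the genotypes overlapped, and the untreated R150X libraries lay above the untreated WT ones. Its log2 fold change was -4.18 in R150X (SE 0.132) and -3.94 in WT cells (SE 0.135). Gbp3 had 5.52, 5.44 and 4.87 CPM in R150X OxLDL against 76.7, 72.4 and 67.2 CPM in untreated R150X libraries, and 4.32, 5.31 and 3.75 CPM in WT OxLDL against 60.6, 57.3 and 58.9 CPM in untreated WT libraries. Its log2 fold changes lay close together, at -3.77 in R150X (SE 0.0914) and -3.72 in WT cells (SE 0.0967). Gbp7, which has been tied to assembly of the phagocyte NADPH oxidase, kept more of its mRNA. It had 7.47, 10.4 and 8.77 CPM in R150X OxLDL against 30.5, 37.9 and 36.5 CPM in untreated R150X libraries, and 10.5, 10.1 and 8.83 CPM in WT OxLDL against 36.1, 37.6 and 35.6 CPM in untreated WT libraries. This left 25.4% of the untreated level in R150X and 27.0% in WT cells, with log2 fold changes of -1.98 in R150X and -1.89 in WT cells.

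The chromosome 5 genes Gbp4 and Gbp9, which overlap in position, fell by different amounts. Gbp4, which has been reported to bind IRF7, was close to the detection limit with OxLDL: 1, 7 and 11 counts in R150X OxLDL libraries and 12, 16 and 4 counts in WT OxLDL libraries. In untreated cells it had 9.73, 10.1 and 11.3 CPM in R150X and 7.06, 7.07 and 6.33 CPM in WT libraries. Its log2 fold change was -4.74 in R150X (SE 0.298, adjusted p = 2.39e-11) and -3.25 in WT cells (SE 0.284, adjusted p = 4.52e-09), with the largest errors of the 10 genes. Gbp9 had 10.4, 10.3 and 10.8 CPM in R150X OxLDL against 27.3, 31.5 and 29.8 CPM in untreated R150X libraries, and 9.65, 11.03 and 9.80 CPM in WT OxLDL against 33.3, 31.8 and 28.7 CPM in untreated WT libraries. It kept 35.5% of its untreated level in R150X and 32.5% in WT cells, the largest shares of the 10, at log2 fold changes of -1.49 in R150X and -1.62 in WT cells.

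The 3 IRG regulators fell by similar factors. Irgm1, which also takes part in autophagy and mitochondrial quality control, had 30.5, 30.4 and 29.0 CPM in R150X OxLDL against 124, 124 and 130.2 CPM in untreated R150X libraries. In WT cells Irgm1 had 31.5, 26.1 and 27.5 CPM with OxLDL and 109, 106 and 105 CPM untreated. The untreated R150X libraries were thus the highest, and the OxLDL libraries of both genotypes overlapped. Irgm2, a regulator on the Golgi, had 16.6, 17.7 and 15.2 CPM in R150X OxLDL against 66.1, 73.7 and 73.0 CPM in untreated R150X libraries, and 18.9, 21.6 and 19.1 CPM in WT OxLDL against 72.0, 76.1 and 70.6 CPM in untreated WT libraries. Igtp, a regulator found on the endoplasmic reticulum and on lipid droplets, had 10.04, 10.2 and 10.8 CPM in R150X OxLDL against 53.5, 52.7 and 52.2 CPM in untreated R150X libraries, and 10.4, 9.87 and 11.5 CPM in WT OxLDL against 43.7, 43.7 and 44.2 CPM in untreated WT libraries. The log2 fold changes in R150X were -2.07 for Irgm1, -2.10 for Irgm2 and -2.35 for Igtp. In WT cells they were -1.91 for Irgm1, -1.88 for Irgm2 and -2.05 for Igtp.

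Iigp1 (ENSMUSG00000054072, chr18:60376027-60392634, plus strand), the vacuole-disrupting effector, was the member whose remaining level with OxLDL differed most between the R150X and WT libraries. It had 5.90, 7.61 and 5.97 CPM in R150X OxLDL against 56.1, 63.2 and 60.8 CPM in untreated R150X libraries. In WT cells it had 2.38, 1.36 and 1.67 CPM with OxLDL and 50.2, 47.3 and 44.2 CPM untreated. The 4 groups followed each other without overlap, with WT OxLDL lowest and untreated R150X highest. Its log2 fold change was -3.20 in R150X (SE 0.104, adjusted p = 3.04e-16) and -4.69 in WT cells (SE 0.135, adjusted p = 3.52e-17). Over the 10 genes the adjusted p lay between 2.16e-21 (Gbp2) and 2.39e-11 (Gbp4) in R150X and between 5.28e-20 (Gbp2) and 4.52e-09 (Gbp4) in WT cells. As a class, the 6 GBPs had a median log2 fold change of -3.97 in R150X and -3.44 in WT cells, and the 4 IRGs -2.23 in R150X and -1.98 in WT cells. Ranked from the lowest fold change among the 15338 genes, the 10 stood between 92 (Gbp4) and 573 (Gbp9) in R150X and between 90 (Iigp1) and 503 (Gbp9) in WT cells.

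**Figure D3:**
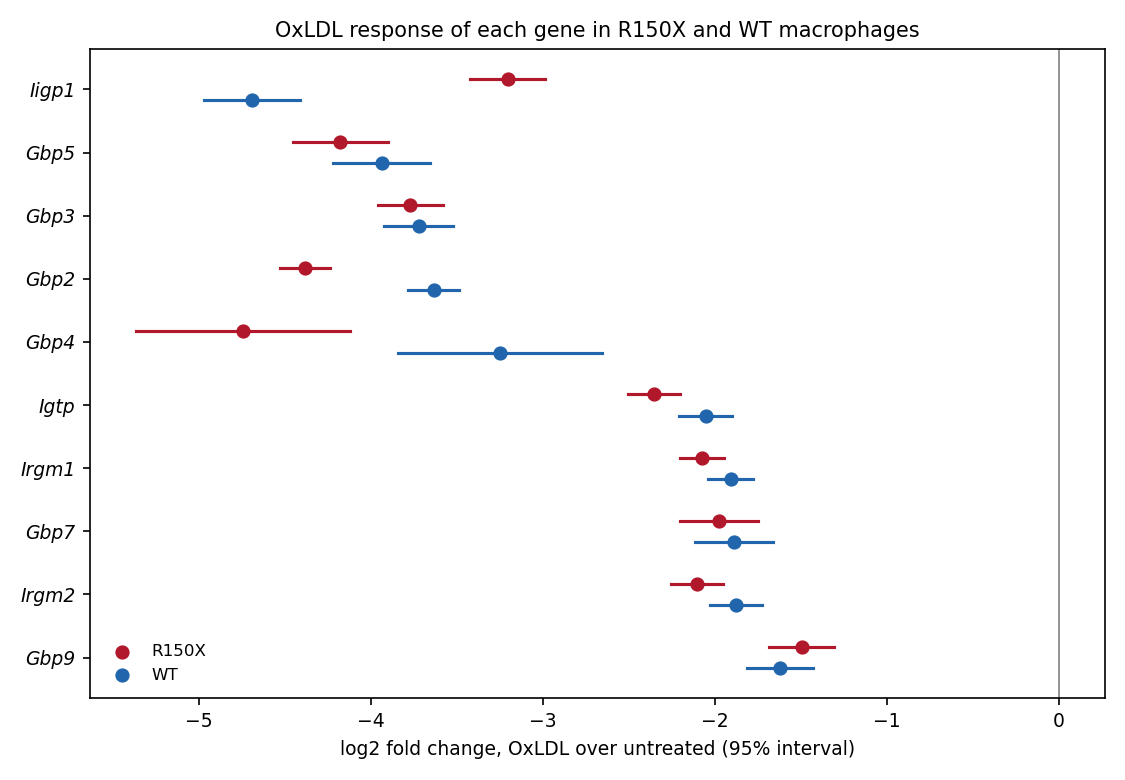
Log2 fold change of each gene with OxLDL over untreated (x axis) in R150X and WT macrophages; points are fitted values and bars 95% intervals, 3 libraries per group. All lie below 0; the intervals of the genotypes stand apart for Iigp1 (-3.20 in R150X, -4.69 in WT), Gbp2 (-4.38 in R150X, -3.64 in WT) and Gbp4 (-4.74 in R150X, -3.25 in WT), whose difference missed the threshold in its own test.

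The second comparison set the genotypes against each other. In untreated cells, 6 of the 10 genes were higher in R150X than in WT and none was lower, where 18.1% of all genes were called higher and 14.8% lower. DESeq2 also called none of the 10 lower. All 4 genes that edgeR did not call had an unadjusted p above 0.05 in edgeR's test. The libraries did not overlap, with R150X higher, for 7 of the 10 genes, against 24.4% of all genes. The median log2 fold change of the 10 was 0.25, that of all genes 0.01. Scaling by library size alone turned the split of all calls, with 36.1% of them higher in place of 55%, and left the 6 calls in place with a median of 0.18.

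Gbp2 and Gbp4 had the largest differences in untreated cells. Gbp2 was higher by 0.63 on the log2 scale (SE 0.0541, adjusted p = 1.73e-08), a 1.55-fold difference in which each R150X library exceeded each WT library. Gbp4 was higher by 0.61 (SE 0.181, adjusted p = 0.0137), a call that was lost without R150X replicate 3 (adjusted p = 0.0594) or without WT replicate 3 (adjusted p = 0.0564). The other calls were smaller: Iigp1 at 0.35 (adjusted p = 0.00253), Gbp3 at 0.29 (adjusted p = 0.00235), Igtp at 0.27 (adjusted p = 0.00213) and Irgm1 at 0.24 (adjusted p = 0.00221). Gbp5 was at 0.18 without overlap between the groups, but missed the threshold (adjusted p = 0.136). Gbp7, Gbp9 and Irgm2 overlapped between the genotypes, at -0.06 (95% interval -0.25 to 0.14), -0.08 (-0.25 to 0.09) and -0.04 (-0.17 to 0.09). In untreated cells the dendritic cell marker sum was higher and the neutrophil, stromal and endothelial sums were lower in R150X than in WT libraries, as given above, and their part in these differences was not tested.

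With OxLDL, 1 of the 10 genes was higher in R150X than in WT and 1 was lower, where 6.1% of all genes were called higher and 6.92% lower. Iigp1 was higher by 1.84 on the log2 scale (SE 0.179, adjusted p = 2.18e-07), a 3.57-fold difference with every R150X OxLDL library above every WT OxLDL library. Irgm2 was lower by the fitted log2 fold change of -0.27 (SE 0.083, adjusted p = 0.0377), also without overlap. Groups without overlap were found for 15% of all genes with R150X higher and for 15% with R150X lower. The Irgm2 call was lost with library size scaling (adjusted p = 0.0568), with only the 2 OxLDL groups in the fit (adjusted p = 0.0661), and without R150X OxLDL replicate 1 (0.0771) or 3 (0.171) or WT OxLDL replicate 2 (0.197). Gbp2, called higher in untreated R150X cells, was at -0.11 with OxLDL (95% interval -0.30 to 0.08, adjusted p = 0.486). Gbp4 was at -0.89 with a wide interval (-1.92 to 0.14), since its counts were so low. The remaining 6 genes lay between -0.14 (Gbp7) and 0.24 (Gbp3) and overlapped between the genotypes. Most neutrophil markers and 5 of the 8 macrophage markers were also lower in R150X with OxLDL, as given above. Their part in these differences and in those of the OxLDL response below was not tested.

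**Figure D4:**
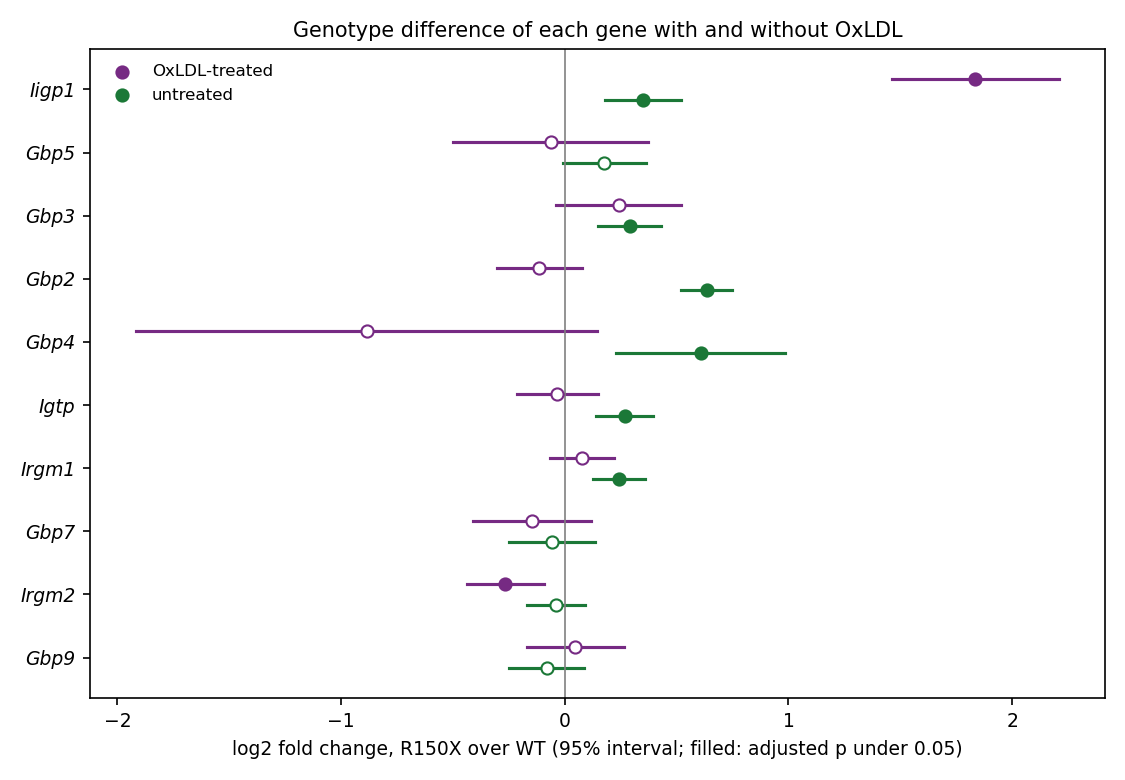
Log2 fold change of each gene in R150X over WT (x axis) in OxLDL-treated and untreated macrophages; bars are 95% intervals, filled points have an adjusted p under 0.05, and each group has 3 libraries. Iigp1 stands out with OxLDL at 1.84, and Gbp2 in untreated cells at 0.63.

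The third comparison tested whether the OxLDL response itself differed between the genotypes, as R150X response minus WT response. The test called 2 of the 10 genes, 1 in each direction, where 3.13% of all genes were called with a positive and 5.19% with a negative difference. Iigp1 had a difference of 1.49 on the log2 scale (SE 0.200, adjusted p = 4.92e-05), and kept 10.8% of its untreated level in R150X against 3.87% in WT cells. Gbp2 had a difference of -0.75 (SE 0.106, adjusted p = 8.82e-05), and kept 4.79% in R150X against 8.05% in WT cells. These 2 calls were kept in all 17 alternative fits, those without 1 library included. Gbp4 differed by -1.49 (SE 0.527, adjusted p = 0.0901), and passed when genes of low count were not filtered (adjusted p = 0.0224), with DESeq2 (0.0238), and without R150X OxLDL replicate 3 (0.0330) or WT OxLDL replicate 3 (0.0263). Igtp was at -0.30 (adjusted p = 0.0916) and Irgm2 at -0.23 (adjusted p = 0.204). For Gbp3, Gbp5, Gbp7, Gbp9 and Irgm1 the difference lay between -0.24 (Gbp5) and 0.13 (Gbp9). Their 95% intervals reached -0.72 on the low side (Gbp5) and 0.40 on the high side (Gbp9). Of all calls of this test 37.6% were positive, and 66.5% with library size scaling.

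The neighbours of Iigp1 were compared because its locus is an IRG cluster. Of the family genes within 500 kb of it, Gm4951 averaged 3.31 ± 0.335 CPM in R150X OxLDL and 1.19 ± 0.342 CPM in WT OxLDL libraries, and 10.9 ± 0.744 CPM in untreated R150X and 8.82 ± 0.563 CPM in untreated WT libraries. F830016B08Rik, named after its values were seen, averaged 2.33 ± 0.494 CPM in R150X OxLDL and 0.945 ± 0.428 CPM in WT OxLDL libraries, and 6.36 ± 1.41 CPM in untreated R150X and 6.84 ± 0.220 CPM in untreated WT libraries. Both were higher in R150X with OxLDL, by 1.46 (adjusted p = 3.28e-05) and 1.29 (adjusted p = 0.00516) on the log2 scale. The difference in response was 1.15 for Gm4951 (adjusted p = 0.00431) and 1.38 for F830016B08Rik (adjusted p = 0.016), the F830016B08Rik call being lost without R150X OxLDL replicate 2 (0.0650) or WT OxLDL replicate 2 (0.0661). The 11 other genes tested within this distance were not in the family list used here. With OxLDL, 1 of them was called higher in R150X (Gm5970) and 1 lower (Cd74), where 6.1% of all genes were called higher and 6.92% lower. Gm5970 was at 2.27 (adjusted p = 0.0247), and at 2.09 in untreated cells (adjusted p = 0.000223). Its counts were low, at 28 over the R150X OxLDL and 5 over the WT OxLDL libraries. Untreated, it had 117 counts over the R150X and 30 over the WT libraries. With OxLDL over untreated, 4 of the 11 fell in R150X, each by a factor of 2 or more (Gm5970, Gm4841, BC023105 and Cd74). In WT cells 6 fell, 3 of them by that much (Gm5970, Gm4841 and BC023105). These genes were named after their values were seen, and Gm4841 had only 2 counts in R150X OxLDL and 5 in WT OxLDL libraries. The share of all genes lower with OxLDL was 20.6% in R150X and 23.1% in WT cells. Whether Gm5970, Gm4841 and BC023105 are IRG relatives was not examined. Nor was it examined whether strain-derived sequence at this locus differs between the R150X and control mice. Iigp1 shares 1.47% of its 50-base stretches of exon sequence with Gm4951.

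The other family loci were compared in the same way. Near the chromosome 3 cluster, the 4 other genes tested within 500 kb (Pdlim5, Kyat3, Gtf2b and Pkn2) had log2 fold changes of -0.25 to 0.18 with OxLDL in R150X and -0.40 to 0.44 in WT cells. Near the chromosome 5 pair, the 4 genes outside the family lay between -0.34 and 0.71 in R150X and between -0.45 and 0.56 in WT cells. No gene outside the family fell by a factor of 2 or more at either of these loci. Around Irgm1, 4 of 12 genes not counted as family here were lower in R150X and 5 in WT cells. Of these, 2 in R150X and 3 in WT cells fell by a factor of 2 or more. Around Igtp and Irgm2, 2 of 14 were lower in each genotype, of which 2 in R150X and 1 in WT cells fell by that much. Over all genes tested, 20.6% were lower in R150X and 23.1% in WT cells.

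Of 16 further family genes, 14 were tested. With OxLDL 10 of these fell in each genotype, against 20.6% of all genes in R150X and 23.1% in WT cells. They include the IRG effectors Tgtp2 (log2 fold change -4.77 in R150X, -4.21 in WT) and Gm12250 (Irgb10; -3.02 in R150X, -3.23 in WT), and Gbp6 (-4.75 in R150X, -4.47 in WT). Gm12250 averaged 3.78 CPM in R150X OxLDL, 2.50 CPM in WT OxLDL, 30.8 CPM in untreated R150X and 23.5 CPM in untreated WT libraries. The genes called higher were Gbp8 in both genotypes and the distant relative Irgq in R150X, where 18.4% of all genes were called higher in R150X and 22.7% in WT cells. Gbp8 was at 0.86 in R150X (adjusted p = 0.0023) and 0.58 in WT cells (adjusted p = 0.0485); the WT call was lost in 12 of 18 alternatives, with adjusted p-values up to 0.218. The median of the 14 genes was -1.83 in R150X and -2.85 in WT cells.

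The other interferon-induced genes moved with the GBPs and IRGs. Of 45 tested, all 45 fell with OxLDL in R150X and 44 in WT cells, with medians of -2.02 in R150X and -2.08 in WT cells. The share of all genes that fell was 20.6% in R150X and 23.1% in WT cells. Cxcl9, a chemokine induced by interferon gamma, had 7 counts over the 3 R150X OxLDL libraries and 1 count over the 3 WT OxLDL libraries, at 163 CPM in untreated R150X and 133 CPM in untreated WT libraries. Ifit1, which binds foreign RNA, had log2 fold changes of -5.72 in R150X and -5.77 in WT cells, the antiviral gene Rtp4 -5.07 in R150X and -4.92 in WT cells, and Oasl2, of the oligoadenylate synthetase family, -3.27 in R150X and -3.41 in WT cells. In untreated cells 16 of the 45 were higher in R150X than in WT and 2 were lower, against 18.1% and 14.8% of all genes. The median of the 45 there was 0.05, and -0.02 with library size scaling, with 12 higher and 4 lower.

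Of the upstream ligands and inducing cytokines, interferon mRNAs were close to absent. Ifng had 0 counts in R150X OxLDL, WT OxLDL and untreated WT libraries and 3 counts over the untreated R150X libraries; Ifnb1 had 1 count in untreated R150X and 8 in untreated WT libraries and 0 with OxLDL. For single libraries, a count of 0 allows up to 0.158 to 0.209 CPM (3 counts; counting error only). Of the 6 genes of this list that were tested, 4 fell in each genotype and none rose. By the same test 20.6% of all genes fell in R150X and 23.1% in WT cells. Tnf averaged 9.34 CPM in R150X OxLDL and 107 CPM in untreated R150X libraries, and 9.16 CPM in WT OxLDL and 85.6 CPM in untreated WT libraries, a log2 fold change of -3.52 in R150X and -3.23 in WT cells. Il12b had 0 counts with OxLDL in both genotypes, which makes it at least 32.3-fold lower in R150X and 38.6-fold lower in WT cells, taking 3 counts over the group as the limit. Il12a was at -3.27 in R150X and -2.63 in WT cells, and Il27 at -0.94 in both.

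Of 19 receptors, kinases and transcription factors of interferon signalling, 11 fell with OxLDL in each genotype, and 3 rose in R150X and 5 in WT cells. Among all genes, 20.6% fell and 18.4% rose in R150X, and 23.1% fell and 22.7% rose in WT cells. Irf1, a factor that induces GBPs, averaged 32.1 ± 1.31 CPM in R150X OxLDL and 78.0 ± 1.62 CPM in untreated R150X libraries, and 35.9 ± 0.615 CPM in WT OxLDL and 54.6 ± 2.15 CPM in untreated WT libraries. It fell by 1.28 on the log2 scale in R150X and fell by 0.60 in WT cells, a difference of -0.68 (SE 0.0807, adjusted p = 1.3e-05), and in untreated cells it was higher in R150X by 0.52 (adjusted p = 2.75e-07). Irf7 was at -4.48 in R150X and -4.93 in WT cells, Stat2 at -2.12 in R150X and -2.11 in WT cells, Irf9 at -1.05 in R150X and -0.89 in WT cells, and the kinase Jak2 at -0.93 in R150X and -0.87 in WT cells. The median of the 19 genes was near 0, at -0.22 in R150X and -0.14 in WT cells.

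Of 13 genes listed here as inhibitors of interferon signalling, 8 fell in each genotype, with 1 rising in WT cells. Those that fell include Usp18 (-5.63 in R150X, -5.20 in WT), Isg15 (-4.53 in R150X, -4.74 in WT) and Socs3 (-1.98 in R150X, -1.97 in WT), which are themselves interferon or cytokine targets, and the phosphatase Ptpn6 (-0.96 in R150X, -0.66 in WT). Of the 13 inflammasome effectors that GBPs act with, 8 fell and 2 rose in R150X, and 5 fell and 5 rose in WT cells. Beside both lists, 20.6% of all genes fell and 18.4% rose in R150X, and 23.1% fell and 22.7% rose in WT cells. Il1b averaged 1.10 CPM in R150X OxLDL and 245 CPM in untreated R150X libraries, and 2.50 CPM in WT OxLDL and 116 CPM in untreated WT libraries. Il1a was at -2.36 in R150X and -2.60 in WT cells, and the pyrin gene Mefv at -1.66 in R150X and -0.87 in WT cells. Ninj1, which ruptures the plasma membrane of dying cells, rose by 0.79 in R150X and 1.21 in WT cells. Casp4, which encodes caspase-11 and is the sensor that GBPs bring to lipopolysaccharide, was named after its values were seen, at -0.99 in R150X and -0.66 in WT cells.

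As a list, the mRNAs of proteins that recruit or prenylate GBPs and IRGs did not share the decrease. Of 22 such genes, 9 rose and 2 fell in R150X, and 11 rose and 2 fell in WT cells, with medians of 0.07 in R150X and 0.16 in WT cells. Of all genes, 18.4% rose and 20.6% fell in R150X, and 22.7% rose and 23.1% fell in WT cells. With library size scaling, 8 rose and 4 fell in WT cells. Lgals3, a galectin that marks damaged vacuoles, rose by 0.63 in R150X and 1.26 in WT cells, and the autophagy genes Gabarapl1 (0.33 in R150X, 0.63 in WT) and Atg7 (0.34 in R150X, 0.44 in WT) also rose. Trim21, a ubiquitin ligase that interferon induces, fell (-1.42 in R150X, -1.09 in WT). With library size scaling, 2 inflammasome effectors rose and 5 fell in WT cells, and 0 inhibitors rose and 11 fell, and the median of all genes in WT cells was -0.10 in place of 0.01.

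**Figure D5:**
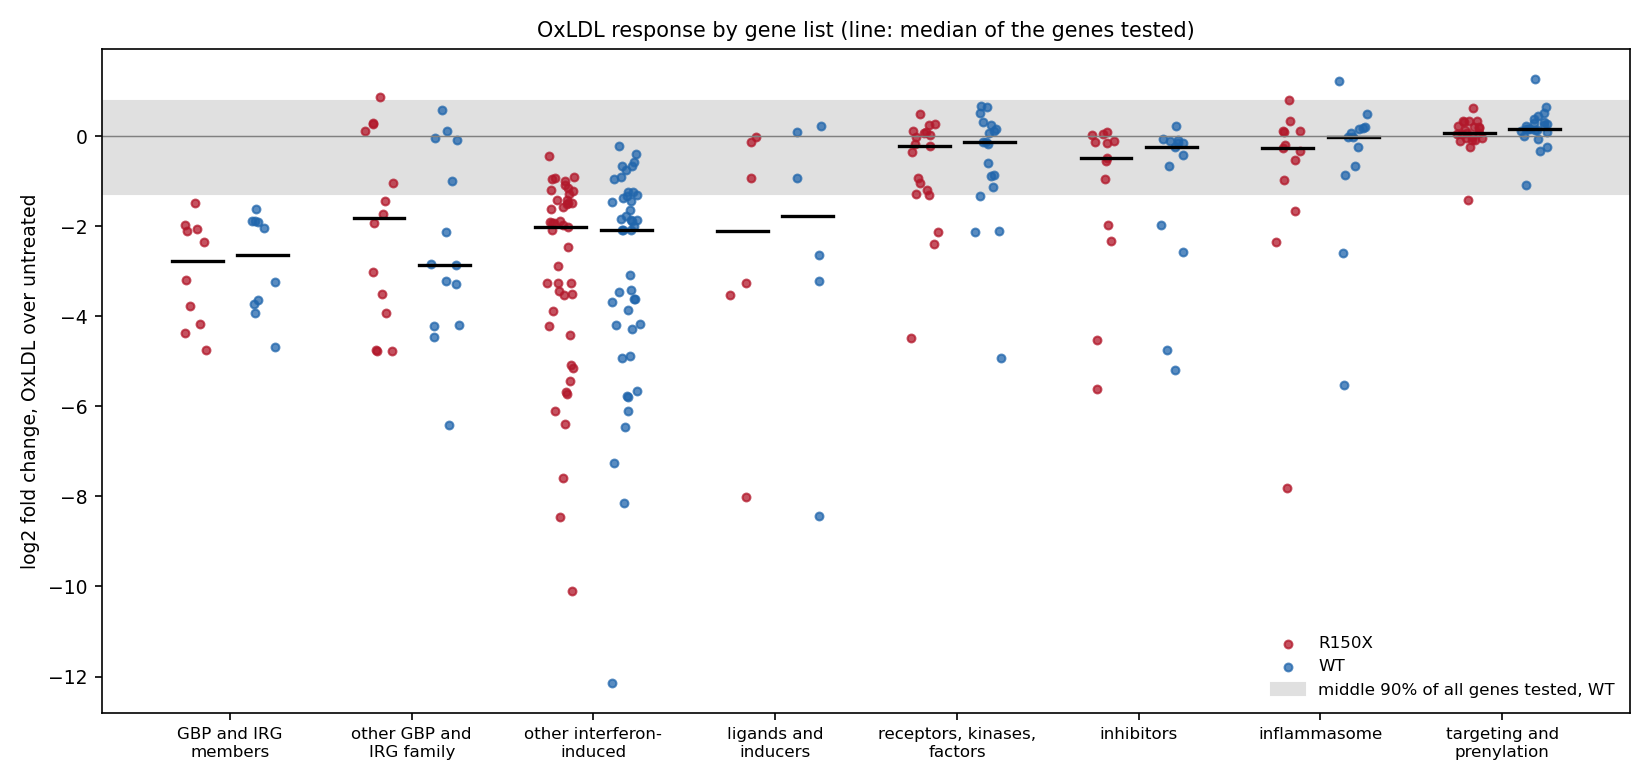
Log2 fold change with OxLDL over untreated (y axis) of the tested genes of each list in R150X and WT macrophages; points are genes, horizontal lines list medians, and the grey band covers the middle 90% of all genes tested in WT cells. The lists of GBPs and IRGs and of other interferon-induced genes have medians of about -1.8 to -2.9, and the targeting and prenylation list lies around 0; fitted values of genes with 0 counts under OxLDL, such as Il12b, depend on the prior count.

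The genes outside the set whose profile over the 12 libraries was most like the mean profile of the 10, out of 10668 genes averaging 5 CPM or more, included Tnip3, Nfkbiz, Sod2 and Xaf1. Likeness was the root mean square difference of log2 CPM, each gene centred on its own mean, and came to 0.114 for Tnip3, 0.150 for Nfkbiz, 0.156 for Sod2 and 0.162 for Xaf1. The members themselves lay farther from their own mean profile, from 0.382 for Igtp and 0.427 for Gbp3 to 0.787 for Gbp4 and 0.806 for Iigp1. Tnip3, which inhibits NF-kB signalling, averaged 8.64 CPM in R150X OxLDL, 7.73 CPM in WT OxLDL, 66.0 CPM in untreated R150X and 57.1 CPM in untreated WT libraries. Nfkbiz encodes an atypical IkB, Sod2 the mitochondrial superoxide dismutase, and Xaf1 is an interferon-induced gene.

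Counts of these families can be shared between near-identical copies. Igtp and Irgm2 share 162 bases of annotated exon on the same strand, 8.01% of the exon bases of Igtp, and 11.8% of the 50-base stretches of Igtp also occur in Irgm2. Over all other genes the share was 12.7% for Gbp7 (10.5% with the overlapping gene Gm43802) and 8.05% for Gbp9 (4.42% with Gbp8). It was 7.83% for Irgm2 and 7.78% for Gbp4. Irgm1 (0.379%) and Gbp5 (1.44%) were close to unique over all genes. The treatment of reads that fit several places is not stated in the labels or processing notes, and values of Igtp, Irgm2, Gbp4, Gbp7 and Gbp9 are uncertain to this extent.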

How the data were processed

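Bulk RNA was measured in 12 libraries of mouse BMDMs. The deposited table holds raw counts per gene, and the submitters' processing notes name FastQC, HISAT2, featureCounts and DESeq2, with the mouse builds mm10 and GRCm38. Every count column was used (0 were left out). Of 54532 identifiers, 54495 matched GENCODE M21. The counts as deposited were tested with edgeR 4.0.16 (limma 3.58.1, R 4.3.3) by a quasi-likelihood fit over all 4 groups, with TMM factors of 0.969 to 1.05, edgeR's filter on low counts (15338 genes kept) and Benjamini-Hochberg adjustment over all of them. CPM use the TMM-scaled library size; RPKM divide CPM by summed exon length and were computed here. The fit was checked on simulated data.

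The 10 genes, the pathway and marker lists and the tests were chosen with earlier results of these data known. Named genes are all 10, Irf1, up to 4 genes per list with the smallest adjusted p in any comparison, the most alike profiles and Gpnmb; others are marked where they appear, and some results the rule gives are not reported here. Alternatives were DESeq2 1.42.0 size factors and Wald test, library size alone, no filter, the replicate number as a block, only the 2 groups compared, and each library left out.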

Additional observations from a re-analysis of the deposited data

Results flagged for a closer look

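Both genes whose OxLDL response differed between the genotypes are given again here, since the difference itself passed the test of the interaction in edgeR's quasi-likelihood fit. For Gbp2 the R150X response minus the WT response was -0.75 on the log2 scale (SE 0.106, adjusted p = 8.82e-05), with 4.79% of the untreated level left in R150X and 8.05% in WT macrophages. For Iigp1 it was 1.49 (SE 0.200, adjusted p = 4.92e-05), with 10.8% left in R150X and 3.87% in WT macrophages. The groups have 3 libraries each.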

How the results depend on the processing

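Over the 50 results for the 10 genes, 868 of 890 alternative values kept direction and side of the threshold, 7 lost the call, 4 gained one and 11 changed sign; for the other named genes the numbers were 1416 of 1436, 17, 2 and 1. All 10 genes stayed lower with OxLDL in both genotypes under every alternative. The count of genes lower in R150X with OxLDL was 1, and 0 with library size alone or with only the 2 groups compared (0 to 1 over the fits that leave out a library, the 0s being without R150X OxLDL replicate 1 or 3 or WT OxLDL replicate 2). The count with a negative difference in response was 1, and 2 with no filter on low counts or with the DESeq2 Wald test (1 to 2 without single libraries, the 2s being without R150X OxLDL replicate 3 or WT OxLDL replicate 3). The count higher in untreated R150X was 5 to 6 without single libraries. Sign changes were all in values that were not called. Between R150X and WT, leaving out single libraries gave -0.12 to 0.021 for Gbp7 untreated (the sign changed without R150X replicate 1), -0.28 to 0.19 for Gbp5 with OxLDL (R150X OxLDL replicate 2, at 0.012, or WT OxLDL replicate 1) and -0.081 to 0.025 for Igtp with OxLDL (WT OxLDL replicate 3). It gave -0.19 to 0.061 for F830016B08Rik untreated (R150X replicate 1). For the difference in response it gave -0.15 to 0.089 for Gbp3 (R150X OxLDL replicate 3, WT OxLDL replicate 2 or R150X replicate 1), -0.22 to 0.020 for Gbp7 (R150X OxLDL replicate 1) and -0.46 to 0.013 for Gbp5 (WT OxLDL replicate 1); with library size alone Gbp3 was at 0.043 and Gbp7 at 0.0030. The cause was not tested.

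Same-numbered libraries of different groups had correlations of -0.0418 to 0.162, with 2 of 18 over 0.1. Differently numbered libraries were not set beside them, so these values cannot decide whether the replicate numbers pair the libraries. With the replicate number as a block, the counts of the 10 genes called were the same in each comparison, and the count of all genes called was 5355 in place of 5056 for R150X against WT untreated, 2164 in place of 1996 with OxLDL, 6209 in place of 5983 and 7190 in place of 7025 for OxLDL in R150X and in WT cells, and 1491 in place of 1276 for the difference in response. Depth limits Gbp4 most, with 1 to 16 counts per OxLDL library.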
